A study of Mus musculus with 20 samples.

Results

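Somatic cytochrome c (Cycs), testis cytochrome c (Cyct) and another haem protein of the same electron route (Cyc1) were followed in mouse testis. With them were followed 2 proteins that act with or after released cytochrome c (Apaf1 and Diablo). The exposure was to benzo[a]pyrene (B[a]P), a polycyclic aromatic hydrocarbon whose metabolites bind DNA. Every probe whose annotated symbol is 1 of these 5 genes was taken, which gave 7 of the 20868 probes on the array and 5 of the 16966 named genes. Cycs and Apaf1 had 2 probes each, and Cyct, Diablo and Cyc1 had 1 each. Both Cycs probes carry the same transcript accession, NM_007808, and their positions on the transcript are not given in the sources used here.

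The mice were male, and whole testis was taken from each. They were wild type C57BL/6 (Wt) or Xpc-/- on a C57BL/6 background, and the latter lack the protein that detects bulky DNA lesions in global genome nucleotide excision repair. By oral gavage, control mice were given the solvent sunflower oil and B[a]P mice were given the hydrocarbon once, at 13 mg/kg bw, and all were killed on day 4. Each of the 4 groups held 5 mice, with 1 array per mouse, and age was not given. All mice carried Cy5 on a 2-colour array beside a Cy3 reference pooled from 3 other unexposed Wt mice, so that dye was the same throughout.

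Cytochrome c shuttles electrons from complex III, of which the Cyc1 product is the haem subunit that hands them over, to complex IV at the inner mitochondrial membrane. When the outer membrane is breached, cytochrome c leaves the mitochondrion and binds Apaf1, which then assembles into the apoptosome and activates caspase-9, while Diablo (also called Smac) is released beside it and relieves the block that inhibitor of apoptosis proteins place on caspases. Mouse testis makes a second cytochrome c, encoded by Cyct, which replaces the somatic form in germ cells from meiosis onward. Whole testis therefore holds transcripts of both.

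The RefSeq sequences around the starts of Cycs and Cyct are shown because these 2 genes encode the same kind of protein and are used in different cells of the testis. Both sequences are on the minus strand of GRCm38.p6 and run 5′ to 3′ from 250 bases before the annotated start to 50 bases after it, at chr6:50566520-50566819 for Cycs and chr2:76360404-76360703 for Cyct. Capitals mark the letters GCATGCGC (the core of the site known for nuclear respiratory factor 1) and TGACGT (the first part of a cAMP response element), searched on both strands, where ACGTCA is TGACGT on the other strand and the overlapping pair reads TGACGTCA.
Cycs: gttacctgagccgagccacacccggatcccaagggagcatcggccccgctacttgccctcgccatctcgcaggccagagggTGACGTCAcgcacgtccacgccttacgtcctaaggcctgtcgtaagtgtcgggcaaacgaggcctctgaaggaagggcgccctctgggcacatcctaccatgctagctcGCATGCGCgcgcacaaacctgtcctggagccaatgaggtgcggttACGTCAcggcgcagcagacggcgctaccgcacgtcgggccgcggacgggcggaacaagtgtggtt
Cyct: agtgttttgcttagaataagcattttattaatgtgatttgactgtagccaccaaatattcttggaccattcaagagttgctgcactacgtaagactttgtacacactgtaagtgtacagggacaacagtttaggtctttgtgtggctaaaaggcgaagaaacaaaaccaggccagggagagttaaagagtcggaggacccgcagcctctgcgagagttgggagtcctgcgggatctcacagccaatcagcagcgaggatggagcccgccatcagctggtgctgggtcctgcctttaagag
The Cycs sequence held 32 CpG dinucleotides and 65% G and C, against 8 CpG and 48.3% in the Cyct sequence, and the median over the 32851 promoters in the table was 7 CpG. GCATGCGC began 60 bases before the Cycs start and occurred in 2.71% of all promoters of this length. TGACGT matched 3 times in the Cycs sequence, at 169, 167 and 15 bases before the start, the first 2 of them as the overlapping pair on opposite strands, and occurred in 7.51% of all promoters. Neither run of letters occurred in the Cyct window. Of the other members, Apaf1 (46 CpG) held GCATGCGC on the minus strand at 113 bases before its start, and Diablo (42 CpG) held neither. These letters were chosen after the sequences had been seen, and a match is a description of the sequence and not a site in use.

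All values below are log2 of a normalised signal that the study had already corrected for the reference spot, and a difference of 1 is a doubling. Levels of different probes are not compared, because probes bind with different efficiency. Cycs probe 1, Cyct, Diablo and Cyc1 lay between the 85.8th and the 97.6th percentile of the probes on their array in every mouse, and Cycs probe 2 between the 70.3rd and the 83.1st. Apaf1 was dim. With the probes of the array in 4 bins of equal size by mean signal, probe 1 of Apaf1 had a mean of 6.82 and lay in the dimmest bin (6.36 to 6.91), and its probe 2 lay in the next one (6.91 to 7.54).

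The Xpc probe checked the genotype labels. Its log2 signal was 7.39 ± 0.20 in Wt control, 7.29 ± 0.20 in Wt B[a]P, 6.72 ± 0.29 in Xpc-/- control and 6.56 ± 0.21 in Xpc-/- B[a]P mice (mean ± SD, n = 5 each), and every Xpc-/- mouse was below every Wt mouse. The sources used here do not say whether the probe lies within the disrupted stretch of the gene. Xpc-/- control 1 and 2 had arrays that lay far from the other 18, at 38.4 and 40.5 on the first principal component against -18.7 to 8.10, and results that rest on them are given with and without them. Correlations between arrays of 1 group ranged from 0.964 to 0.994. Of the cell type markers, 10 of 10 measured spermatid markers and 8 of 9 spermatocyte markers were brighter than the median probe. So were 5 of 7 spermatogonial, 7 of 11 Sertoli, 7 of 8 Leydig and 5 of 6 peritubular myoid cell markers. For macrophages, endothelium and red blood cells it was 4 of 6, 2 of 6 and 2 of 2, so this measure alone does not tell cell types apart.

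Over both genotypes, 1 of the 2 probes of somatic cytochrome c and the probe of cytochrome c1 were called higher after B[a]P, whereas testis cytochrome c was not called. The Cyc1 call held in 12 of 28 alternative settings. Without Xpc-/- control 1 and 2, Cyct was called lower (-0.28, limma adjusted p = 0.0301). With all 20 mice, Cycs probe 1 rose 1.29-fold and Cyc1 1.21-fold. The other 5 probes did not pass the test: the second Cycs probe was 1.24-fold higher, both Apaf1 probes lay at 1.10-fold and 1.04-fold, and Diablo and Cyct lay at 0.944-fold and 0.931-fold. So 2 of the 7 probes were called higher and 0 lower, at the threshold of 0.05 for the adjusted p (limma, Benjamini-Hochberg over all probes). Over the whole array 5.68% of probes passed in this comparison, 3.57% higher and 2.12% lower, and calls were more frequent among bright probes: of 4 bins of equal size by signal, 16.1% of the brightest passed, the bin that holds 5 of the 7 probes here and both called ones, against 0.23% of the dimmest. In whole testis, more cells of a type and more RNA per cell cannot be told apart.

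**Figure D1:**
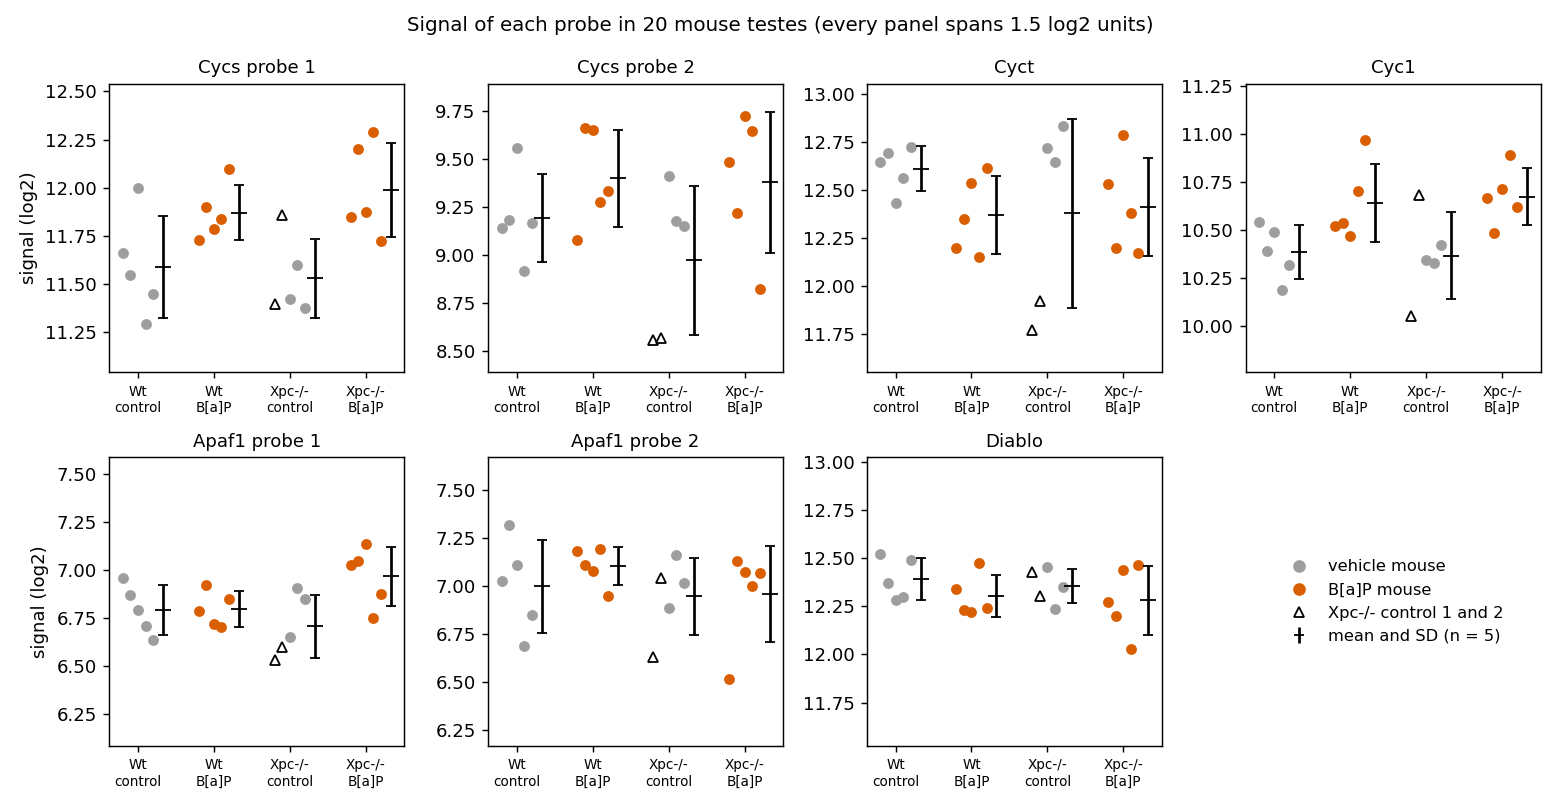
Signal of each probe (log2, vertical axis) in each of the 20 mice by group (horizontal axis), with the mean and SD of each group of 5 beside the points; every panel spans the same number of log2 units, and open triangles are Xpc-/- control 1 and 2. The exposed means of Cycs probe 1 and Cyc1 lie above both control means, the groups overlap, and the triangles are the lowest points for Cyct and Cycs probe 2.

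Cycs probe 1 read 11.66, 11.55, 12.00, 11.29 and 11.45 in the 5 Wt control mice and 11.73, 11.90, 11.79, 11.84 and 12.10 in the 5 Wt B[a]P mice. It read 11.39, 11.86, 11.42, 11.60 and 11.37 in the Xpc-/- control mice and 11.85, 12.20, 11.88, 12.29 and 11.72 in the Xpc-/- B[a]P mice. Exposed mice were thus mostly higher but not separate from controls, because Wt control 3 and Xpc-/- control 2 reached the exposed range. The group means were 11.59 ± 0.27, 11.87 ± 0.14, 11.53 ± 0.21 and 11.99 ± 0.24 in the same order (SD, n = 5 each). The difference over both genotypes was 0.37 (SE 0.092), with a 95% interval of 0.18 to 0.56 and a limma adjusted p of 0.0142. It kept its call in all 28 alternative settings tried, at 0.33 to 0.42.

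Cycs probe 2, which carries the same accession, read 9.14, 9.18, 9.56, 8.92 and 9.17 in Wt control and 9.07, 9.66, 9.65, 9.28 and 9.33 in Wt B[a]P mice. It read 8.56, 8.56, 9.41, 9.17 and 9.15 in Xpc-/- control and 9.48, 9.22, 9.72, 9.64 and 8.82 in Xpc-/- B[a]P mice. Xpc-/- control 1 and 2 were the lowest of all 20 mice, and exposed and control mice overlapped in both genotypes. The difference over both genotypes was 0.31 (SE 0.12, 95% interval 0.064 to 0.55), which did not pass the test (limma adjusted p = 0.138). It was 0.17 without Xpc-/- control 1 and 2 (adjusted p = 0.346), and 0.38 without Xpc-/- B[a]P 5, the lowest mouse of its group, where it passed (adjusted p = 0.0417).

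Cyc1 read 10.54, 10.39, 10.49, 10.19 and 10.32 in Wt control and 10.52, 10.54, 10.47, 10.70 and 10.97 in Wt B[a]P mice. It read 10.05, 10.68, 10.34, 10.33 and 10.42 in Xpc-/- control and 10.66, 10.48, 10.71, 10.89 and 10.62 in Xpc-/- B[a]P mice. Here Xpc-/- control 1 and 2 were the lowest and the highest of their group, so that they cancelled in its mean, and exposed and control mice overlapped. The difference over both genotypes was 0.28 (SE 0.083, 95% interval 0.11 to 0.45; limma adjusted p = 0.0415). This call lay near the threshold and held in 12 of 28 alternative settings, with the value between 0.24 and 0.32 and the adjusted p between 0.00944 and 0.095. The ordinary analysis of variance per probe, the kind of test that the study's methods name, gave an adjusted p of 0.0642.

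Cyct read 12.65, 12.69, 12.43, 12.56 and 12.72 in Wt control and 12.20, 12.35, 12.54, 12.15 and 12.61 in Wt B[a]P mice. It read 11.77, 11.92, 12.72, 12.64 and 12.83 in Xpc-/- control and 12.53, 12.20, 12.78, 12.38 and 12.17 in Xpc-/- B[a]P mice. In Wt mice 3 of 5 exposed values were below every control, whereas the Xpc-/- control group was split into 2 low mice, controls 1 and 2, and 3 high ones. The Xpc-/- control mean was 12.38 ± 0.49 (SD, n = 5) with all mice and 12.73 ± 0.10 (SD, n = 3) without those 2. The difference over both genotypes was -0.10 (SE 0.11, 95% interval -0.34 to 0.13; limma adjusted p = 0.695).

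The arrays of Xpc-/- control 1 and 2 therefore decided the call for Cyct. Without them Cyct fell by 0.28 on the log2 scale over both genotypes (95% interval -0.46 to -0.10, limma adjusted p = 0.0301, n = 18 mice), at -0.24 in Wt and -0.32 in Xpc-/- mice. Array weights, which count such arrays less, gave -0.27 (adjusted p = 0.0335). The same removal left Cycs probe 1 at 0.40 (adjusted p = 0.00352) and Cyc1 at 0.28 (adjusted p = 0.0185), so that 3 of 7 probes were called, 2 higher and 1 lower. More probes of the whole array passed as well, 5.63% higher and 5.88% lower. What sets these 2 arrays apart was not tested.

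**Figure D2:**
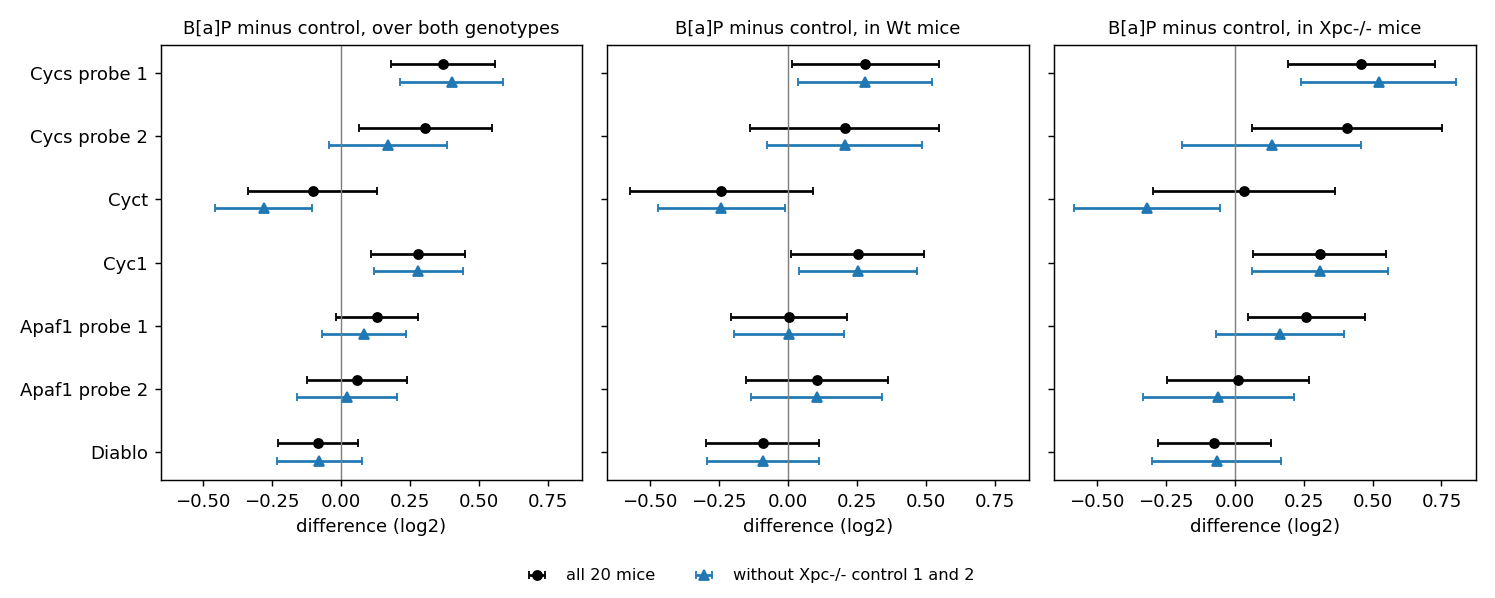
Difference between B[a]P and control mice (log2, horizontal axis) for each of the 7 probes (vertical axis), over both genotypes and within each, from limma with 95% intervals not adjusted for the number of probes; black circles are all 20 mice and blue triangles leave out Xpc-/- control 1 and 2. Cycs probe 1 and Cyc1 keep their place, whereas Cyct moves from -0.10 to -0.28 over both genotypes and from 0.03 to -0.32 in Xpc-/- mice.

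Cycs and Cyct were also set against each other within each mouse, which removes only a shift that both compared probes share. The log2 value of Cyct was subtracted from that of a Cycs probe, and the exposed and control mice were compared by a two-sided exact permutation test over all reassignments of treatment within genotypes. Cycs probe 1 rose relative to Cyct by 0.47 (Wt 0.52, Xpc-/- 0.42; exact p = 0.0185, and 0.0370 after adjustment over the 4 pairs of probes tested). Cycs probe 2 rose relative to Cyct by 0.41 (Wt 0.45, Xpc-/- 0.37; exact p = 0.00205, adjusted 0.00819). For probe 2 the adjusted p stayed below the threshold in 21 of 21 settings that left out 1 mouse or Xpc-/- control 1 and 2, at 0.37 to 0.48 (highest adjusted exact p = 0.0180). For probe 1 it did so in 11 of 21, at 0.40 to 0.68 (highest adjusted exact p = 0.0834), and it was 0.00368 without Xpc-/- control 1 and 2. The low Cyct values of Xpc-/- control 1 and 2 coincided with low values of Cycs probe 2, and the difference of that probe from Cyct was -3.22 and -3.36 in these mice and -3.31 to -3.69 in the other 3 Xpc-/- controls. For Cycs probe 1, which was not low in them, the difference from Cyct was -0.38 and -0.06 against -1.05 to -1.46, within the range of the exposed Xpc-/- mice (-0.91 to 0.0032).

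**Figure D3:**
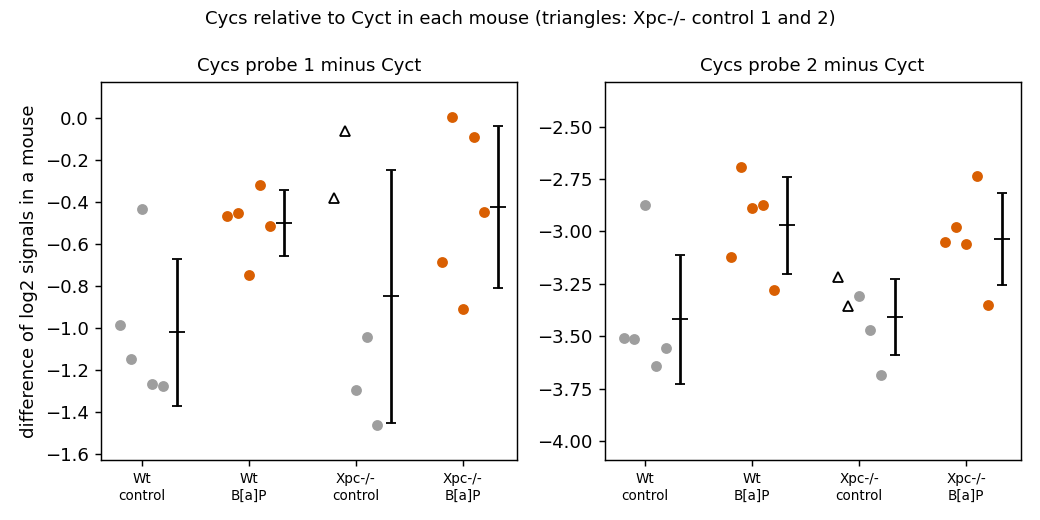
Log2 signal of a Cycs probe minus that of Cyct in the same mouse (vertical axis), by group (horizontal axis), with mean and SD of 5 mice; grey points are control mice, orange points B[a]P mice, and triangles Xpc-/- control 1 and 2. Only shifts between groups carry meaning, since probes differ in efficiency; the exposed means lie higher by 0.47 (probe 1) and 0.41 (probe 2).

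The 2 Cycs probes did not differ detectably in their response. The change of probe 1 exceeded that of probe 2 by 0.063 (exact permutation p = 0.676), at 0.075 in Wt and 0.051 in Xpc-/- mice, less than the spread between mice of a group. Without Xpc-/- control 1 and 2 the excess was 0.23 (exact p = 0.106, adjusted 0.142). Over the 20 mice the 2 probes correlated at r = 0.47 (Spearman 0.58), and at 0.53 without those 2 mice. There are 3 annotated Cycs pseudogenes, on chromosomes 5, 9 and 13, and whether either probe also binds their transcripts was not tested.

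Apaf1, the scaffold of the apoptosome, did not pass the test with either probe. Its probe 1 ranged from 6.64 to 6.96 in Wt control, 6.71 to 6.92 in Wt B[a]P, 6.54 to 6.91 in Xpc-/- control and 6.75 to 7.14 in Xpc-/- B[a]P mice, and 3 of 5 exposed Xpc-/- mice were above every Xpc-/- control. The difference was 0.13 over both genotypes (SE 0.073, limma adjusted p = 0.349), at 0.0038 in Wt and 0.26 in Xpc-/- mice (adjusted p = 0.236). Its probe 2 did not repeat this, with 0.06 over both genotypes (SE 0.089, adjusted p = 0.793) and 0.01 in Xpc-/- mice. The responses of the 2 Apaf1 probes differed by 0.073 (exact permutation p = 0.495, adjusted 0.660), a pair added after the data had been seen. This is the mean of opposite values, -0.10 in Wt and 0.25 in Xpc-/- mice, so the test does not address their disagreement in Xpc-/- mice. The 95% intervals over both genotypes reached 0.28 and 0.24, so that rises up to these sizes lie within them.

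Diablo, the antagonist of caspase inhibitors, had the smallest standard error of the 7 probes. It ranged from 12.28 to 12.52 in Wt control, 12.22 to 12.48 in Wt B[a]P, 12.24 to 12.45 in Xpc-/- control and 12.03 to 12.47 in Xpc-/- B[a]P mice, and the groups overlapped. The difference over both genotypes was -0.08 (SE 0.071, 95% interval -0.23 to 0.06; limma adjusted p = 0.591), so that a fall by more than 0.23 lies outside the interval.

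Within a single genotype 0 of the 7 probes passed the test (limma), where 0.695% of all probes passed in Wt mice (0.494% higher, 0.201% lower) and 0.647% in Xpc-/- mice (0.585% higher, 0.0623% lower). At an unadjusted p under 0.05 there were 2 of 7 in Wt mice, Cycs probe 1 and Cyc1, and 4 of 7 in Xpc-/- mice, the same 2 with Cycs probe 2 and Apaf1 probe 1, against 10.7% and 14.3% of all probes; the ordinary analysis of variance also called 0 of 7. Cycs probe 1 was higher by 0.28 in Wt (adjusted p = 0.436) and by 0.46 in Xpc-/- mice (adjusted p = 0.0858, and 0.0347 without Xpc-/- control 1 and 2, where the value was 0.52). Cyc1 was higher by 0.25 in Wt and 0.31 in Xpc-/- mice, and Cycs probe 2 by 0.21 and 0.41. Cyct stood at -0.24 in Wt and 0.03 in Xpc-/- mice.

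None of these differences between genotypes was itself detectable. The interaction was between -0.09 (Apaf1 probe 2) and 0.28 (Cyct), 0 of 7 probes passed (limma, adjusted p = 0.999 for each), 0 had an unadjusted p under 0.05, and 0% of all probes passed. The 95% interval of the interaction of Cycs probe 1 was -0.20 to 0.55, so that unequal responses lie within it. Without Xpc-/- control 1 and 2 the interaction of Cyct was -0.08.

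Genotype alone was not followed by a called change of any member. Over both treatments the 7 differences between Xpc-/- and Wt mice lay between -0.12 (Cycs probe 2) and 0.04 (Apaf1 probe 1), with 0 of 7 called by limma (smallest adjusted p = 0.829) where 0.0192% of all probes were called, and 0 of 7 had an unadjusted p under 0.05. Among control mice alone the smallest adjusted p was 0.894, with 0% of all probes called, and among exposed mice alone it was 0.987, with 0.00479% called. In control mice 7 of 7 probes were lower in Xpc-/- than in Wt mice, by at most 0.23 (Cyct). When Xpc-/- control 1 and 2 were left out, 3 of 7 were lower and 4 higher, and Cyct was then higher by 0.12 in Xpc-/- control mice.

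The wider pathway was described by 9 gene lists, of which 102 of 108 genes were on the array with 108 probes. Over both genotypes 6 probes (5.56%) rose and 4 (3.7%) fell, against 3.57% and 2.12% of all probes, and the median difference was 0.01 against -0.01 over all probes. Without Xpc-/- control 1 and 2 the counts were 7 higher and 11 lower of 108, where 5.63% and 5.88% of all probes were called, and 6 of the 10 genes called with all mice were still called.

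Upstream of cytochrome c release, 4 of 20 measured genes of the BCL2 family and the mitochondrial gate were called, where 5.68% of all probes passed. At an unadjusted p under 0.05 there were 5 of 20 probes, against 18.5% of all probes. Vdac1 and Vdac3, channels of the outer membrane through which metabolites pass, rose by 0.43 and 0.27 on the log2 scale (limma adjusted p = 0.0437 and 0.0309). Opa1, a GTPase that shapes the cristae in which cytochrome c is held, fell by 0.32 (adjusted p = 0.00537) and was also called in Wt mice alone (-0.42, adjusted p = 0.0405). Bcl2l11, which encodes the BH3-only protein Bim, fell by 0.26 (adjusted p = 0.0461). The calls of Vdac1 (0.25, adjusted p = 0.0974) and Vdac3 (0.20, adjusted p = 0.0700) were lost without Xpc-/- control 1 and 2, and Vdac2, the remaining channel of this family, then fell by 0.25 (adjusted p = 0.0231), whereas Opa1 was called in 28 of 28 alternatives. The calls of Vdac1 and Bcl2l11 each held in 10 of 28 alternatives and that of Vdac3 in 19.

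Downstream and beside the apoptosome no gene was called with all 20 mice. This holds for 7 of 7 measured caspases and nucleases, among them Casp9 at -0.01, for 7 of 7 inhibitors of caspases and their antagonists, among them Xiap at 0.09 and 0.08 with its 2 probes, and for 8 of 8 regulators of apoptosome assembly. At an unadjusted p under 0.05 there were 3 of 7, 1 of 8 and 3 of 10 probes in these lists, against 18.5% of all probes. Without Xpc-/- control 1 and 2, Casp2 (-0.26, limma adjusted p = 0.0391), Birc2 (-0.28, 0.0237) and Septin4 (-0.28, 0.0159) fell in these lists. Birc3 (0.26, adjusted p = 0.0148) rose there. Without those 2 mice, 5.63% of all probes were called higher and 5.88% lower.

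Among the genes of cytochrome c maturation, its redox partners and complex IV, the calls went both ways, where 5.68% of all probes passed. At an unadjusted p under 0.05 there were 3 of 6 maturation and redox probes and 8 of 23 complex IV probes, against 18.5% of all probes. Hccs, the lyase that attaches haem to cytochrome c and cytochrome c1, rose by 0.26 (limma adjusted p = 0.0381), and Gfer, the sulfhydryl oxidase of the intermembrane space that passes electrons to cytochrome c, rose by 0.30 (adjusted p = 0.0136), 2 of 6 maturation and redox partners. Of 22 measured genes of complex IV, Surf1 (0.37, adjusted p = 0.00368), an assembly factor, and Cox17 (0.30, adjusted p = 0.0364), a copper chaperone, rose, and Cox6a1, a structural subunit, fell by 0.37 (adjusted p = 0.00443). The second Cox17 probe stood at -0.06 (adjusted p = 0.836), so that its probes disagreed. The call of Cox17 was lost without Xpc-/- control 1 and 2 (0.21, adjusted p = 0.101), and there Cox11, another copper chaperone, fell by 0.29 (adjusted p = 0.0341). Surf1 was also called in Xpc-/- mice alone (0.51, adjusted p = 0.0293), and Surf1, Cox6a1 and Gfer were each called in 28 of 28 alternatives, Hccs in 17 and Cox17 in 15.

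No complex III gene besides Cyc1 was called with all mice (0 of 13), and no germ cell isoform of energy metabolism was (0 of 9 measured), among them Ldhc, the testis lactate dehydrogenase, at -0.11. At an unadjusted p under 0.05 there were 3 of 13 and 3 of 9 probes in these lists, against the same 18.5%. The Ldhc probe had a mean of 15.93, at the top of the signal range (highest probe mean 15.93). Its Wt difference of -0.20 was the same as that of the spermatid genes Tnp1, Prm1 and Prm2, so it may not follow Ldhc RNA. Without Xpc-/- control 1 and 2, Uqcc1 (0.38, limma adjusted p = 0.00118) and Uqcc2 (0.24, 0.0364), assembly factors of complex III, rose. The testis pyruvate dehydrogenase subunit Pdha2 (0.34, adjusted p = 0.00178) also rose, and Uqcrc1 (-0.31, 0.00718), a structural subunit, fell. Without those 2 mice, 5.63% of all probes were called higher and 5.88% lower. Of 12 factors that act on nuclear genes of mitochondria, Crem, a cAMP-responsive regulator needed for spermatid development, fell by 0.31 (limma adjusted p = 0.0463, and 0.0828 without those 2 mice; called in 12 of 28 alternatives), and Nrf1 stood at -0.13 (adjusted p = 0.393). Without those 2 mice Gabpb1, a subunit of nuclear respiratory factor 2, fell by 0.29 (limma adjusted p = 0.0197). Creb1 then fell by 0.31 (adjusted p = 0.00895) with 1 of its 2 probes, the other at -0.01. Of the 14 probes of these factors, 1 was called with all mice and 6 had an unadjusted p under 0.05 (all probes: 5.68% and 18.5%).

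**Figure D4:**
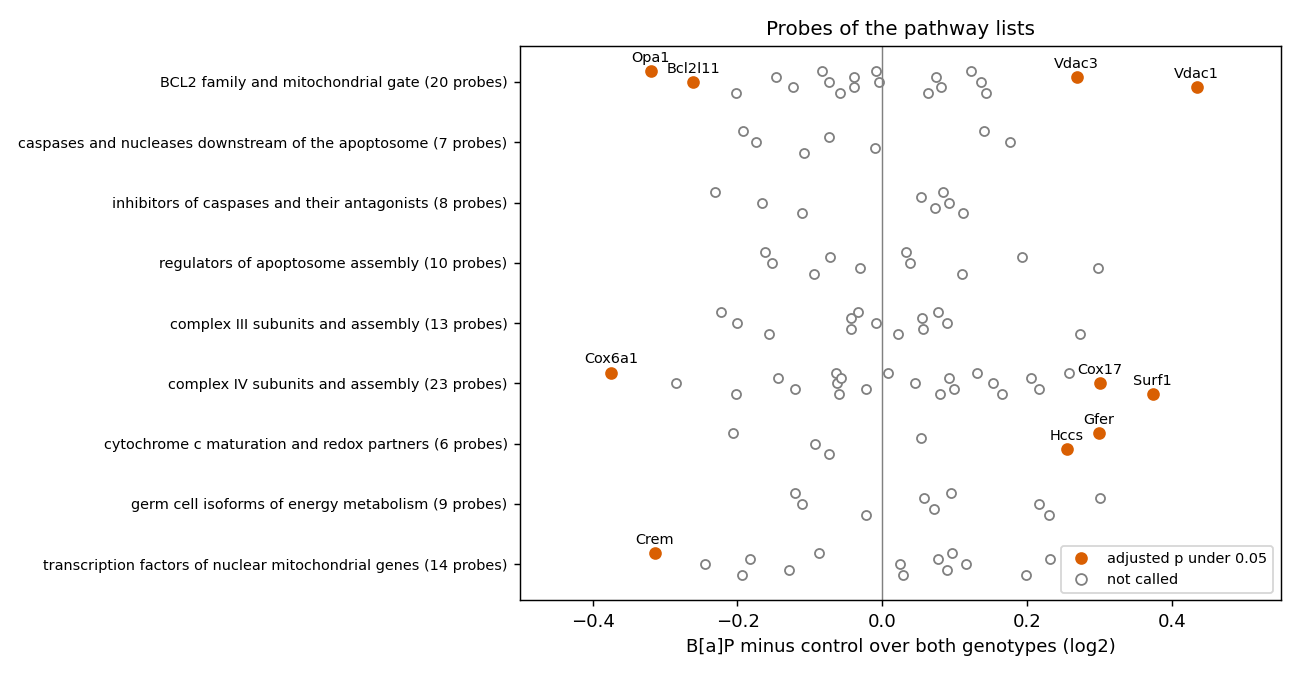
Difference between B[a]P and control mice over both genotypes (log2, horizontal axis) for each probe of the 9 pathway lists (rows; vertical offset within a row only separates points); filled orange points have an adjusted p under 0.05 and are named. The 10 called probes lie on both sides of 0, and rows for caspases, caspase inhibitors, apoptosome regulators, complex III and germ cell isoforms hold none.

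Cell type markers were measured beside these results, where 5.68% of all probes were called for B[a]P over both genotypes. Of 6 peritubular myoid cell markers, Tagln (0.43, limma adjusted p = 0.000536) and Cnn1 (0.33, adjusted p = 0.0244) rose, and the average of the list relative to the Wt control mean was -0.06 to 0.07 in Wt control, 0.02 to 0.23 in Wt B[a]P, -0.16 to -0.01 in Xpc-/- control and 0.06 to 0.25 in Xpc-/- B[a]P mice. Only 1 of these 6 genes was in the dimmest of the 4 bins of probes. Among germ cells, Sycp3 of 9 spermatocyte markers (0.40, adjusted p = 0.00409) and Crisp2 of 10 spermatid markers (0.41, adjusted p = 0.00219) rose, and the list averages stayed between -0.12 and 0.15 and between -0.19 and 0.07 in all mice. The median probe of the spermatid list lay at -0.11, opposite in sign to Crisp2, and that of the spermatocyte list at 0.05. Tnp1, Prm1 and Prm2 had the same Wt difference as Ldhc (-0.20), so the averages may not follow their RNA. No marker of spermatogonia (7 measured), Sertoli cells (11), Leydig cells (8), macrophages (6), endothelium (6) or red blood cells (2) was called, with 0, 4, 2, 1, 1 and 1 probes of these lists, in that order, at an unadjusted p under 0.05, the threshold that 18.5% of all probes passed. The Leydig cell average ranged from -0.60 (Wt control 5) to 0.76 (Wt control 3) in Wt control and from 0.12 to 0.32 in Wt B[a]P mice. It ranged from 0.06 to 0.22 in Xpc-/- control and from -0.07 to 0.34 in Xpc-/- B[a]P mice. The part of these cell types in the changes of Cycs and Cyc1 was not tested.

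Finally, the probes whose values ran most like each member over the 20 mice were listed, as a description in which array effects are shared. Cycs probe 1 ran with Rchy1 (r = 0.91), Msantd4 (0.89) and Vps26c (0.88), of which Vps26c was itself called for B[a]P (0.31, limma adjusted p = 0.00694). Cyc1 ran with Trp53inp1 (0.90), Mea1 (0.86) and Ppp1cb (0.85), and with Cycs probe 1 at 0.79 (Spearman 0.76; 0.77 without Xpc-/- control 1 and 2). Cycs probe 2 ran with Chmp7 (0.94), Ptpn11 (0.93) and Serinc1 (0.92), and Cyct with Msh6 (0.90), Slk (0.87) and Cntd1 (0.87), where r was 0.80, 0.74 and 0.72 without Xpc-/- control 1 and 2. Cycs probe 2 and Cyct themselves correlated at 0.55 with all mice and at 0.14 without those 2. The neighbours of Apaf1 probe 1 (Cd4, 0.85; Pskh1, 0.80; Stx11, 0.77), of Apaf1 probe 2 (Col3a1, 0.79; Hvcn1, 0.78; Bckdhb, 0.77) and of Diablo (Usp42, 0.78; Olfr1270, 0.73; Aurka, 0.72) were less close.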

How the data were processed

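Total RNA of whole testis from 20 mice was measured on 2-colour Agilent mouse arrays, with every mouse in Cy5 and a common reference in Cy3. The values deposited by the authors are on a natural log scale: per the study's methods, mean spot signals from Imagene 8.0.1 were log-transformed, quantile normalised over all scans, corrected for the reference spot and averaged over replicate spots, and subtraction of local background is not stated. Spot flags and backgrounds were not used here, so detection limits are unknown and changes of dim probes may be understated. Values were divided by the natural log of 2 and are called log2.

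A group-means model was fitted to all 20868 probes with limma 3.58.1 (R 4.3.3), with contrasts for B[a]P over both genotypes and within each, genotype over both treatments and within each, and the interaction. P-values were adjusted by Benjamini-Hochberg over all probes, with a threshold of 0.05. Differences between probes within a mouse were tested by exact permutation (Python 3.11.15). The scripts were tested on simulated data. One gene symbol was given for 18303 probes and none for 2565. Promoters came from RefSeq, build GRCm38.p6, with 4 of 5 members matched.

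Groups and mouse numbers came from the labels. Of 20 pairs of same-numbered mice checked in different groups, 0 had deviations from their group means correlated above 0.1. This gave no sign of pairing by number but cannot show whether such mice were related. Mice were the replicates, and their number limits the precision. The members, gene lists and marker lists were chosen with earlier results of these data known. Named are all members, Xpc, list genes called in any contrast and the 3 most similar probes of each member; list genes called only without Xpc-/- control 1 and 2, Casp9, Xiap, Ldhc, Nrf1 and the named markers were chosen after their values were seen. The alternatives were ordinary analysis of variance, a variance trend, array weights, median centring, repeated quantile normalisation, leaving out the dimmest of 4 signal bins, a replicate block, leaving out each mouse, and leaving out Xpc-/- control 1 and 2.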

Additional observations from a re-analysis of the deposited data

Results flagged for a closer look

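One value of a member lay far from the rest of its group. Apaf1 probe 2 read 6.52 in Xpc-/- B[a]P 1, while the highest mouse of that group read 7.13. Its gap to the nearest mouse was 0.785 of the range of the group, above the critical value of 0.71 for 5 samples. Of 28 groups of values examined 1 was marked in this way, and chance marks about 1 in 20. Apaf1 probe 1 in the same mouse read 7.03, within its group's range of 6.75 to 7.14.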

How the results depend on the processing

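Of 975 values of the 7 probes under the alternatives, 908 kept their direction and their side of the threshold, 16 lost a call, 6 gained one and 45 changed sign. The rise of Cycs probe 1 over both genotypes kept its call in 28 of 28 alternatives. The call of Cyc1 was lost with ordinary analysis of variance (0.28, adjusted p = 0.0642), a variance trend (0.28, 0.0674), repeated quantile normalisation (0.27, 0.0510) and the replicate block (0.28, 0.0572), and when Wt control 2, 4 or 5, Wt B[a]P 4 or 5, Xpc-/- control 1, 3, 4 or 5, or Xpc-/- B[a]P 1, 3 or 4 was left out (0.24 to 0.32 over all 20 mice left out in turn). No other call of a member changed under the replicate block, and 5 of 20 arrays correlated best with their own number. Cycs probe 2 ranged from 0.25 to 0.38 when single mice were left out. Cycs probe 1 was called in Xpc-/- mice with array weights (0.51), without Xpc-/- control 2 (0.54) and without Xpc-/- control 1 and 2 (0.52). Cyct was called at -0.27 with array weights and at -0.28 without Xpc-/- control 1 and 2. Apaf1 probe 1 got no value when the dimmest of 4 signal bins was left out. All values that changed sign were uncalled on both sides. With array weights these were Apaf1 probe 1 in Wt (-0.026), and in Xpc-/- mice Cyct (-0.26) and Apaf1 probe 2 (-0.032), and the genotype difference of Cyct (0.042). Without Xpc-/- control 1 and 2 they were, in Xpc-/- mice, Cyct (-0.32) and Apaf1 probe 2 (-0.060), for genotype Cycs probe 1 (-0.0035), Cycs probe 2 (0.016) and Cyct (0.082), and for the interaction Cycs probe 2 (-0.073) and Cyct (-0.079). Leaving out single mice moved Apaf1 probe 1 in Wt from -0.036 to 0.045, and in Xpc-/- mice Cyct from -0.12 to 0.15 and Apaf1 probe 2 from -0.066 to 0.12. It moved the genotype difference of Cycs probe 1 from -0.013 to 0.080, Diablo from -0.053 to 0.0017 and Cyc1 from -0.033 to 0.048. It moved the interaction of Apaf1 probe 2 from -0.17 to 0.018, Diablo from -0.029 to 0.080 and Cyc1 from -0.024 to 0.14, and the excess of Cycs probe 1 over probe 2 from -0.0055 to 0.16. The rise of Cycs probe 1 relative to Cyct ranged from 0.40 to 0.57 without single mice, and its call was lost when Wt control 2, 4 or 5, Wt B[a]P 4, Xpc-/- control 3, 4 or 5, or Xpc-/- B[a]P 2, 4 or 5 was left out. The number of probes called for B[a]P over both genotypes (1186) was 2630 with array weights, 2401 without Xpc-/- control 1 and 2, and 763 (without Wt control 4) to 1667 (without Xpc-/- control 2) without single mice. In Wt mice (145) it was 63 with a variance trend, 703 with array weights, 447 without both arrays and 17 to 254 without single mice. In Xpc-/- mice (135) the same settings gave 62, 604, 545 and 2 to 321. For genotype over both treatments (4) it was 11 with array weights and 4 to 7 without single mice. For genotype among control mice (0) it was 9 with array weights, 3 without both arrays and 0 to 1 without single mice. Among exposed mice (1) it was 2 with a variance trend, array weights or the replicate block, 3 without both arrays and 1 to 2 without single mice, and for the interaction (0) it was 0 to 1. The causes were not tested.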
